A study of Mus musculus with 6 samples.

Results

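The genes described here are the numbered Zfp (zinc finger protein) genes of mouse chromosomes 7, 8, 13 and 17, where many of them lie side by side in gene clusters. They were chosen by name and position alone: every gene called Zfp plus a number on these 4 chromosomes that was listed for either cell type, except Zfp42, a pluripotency gene used as a marker. This gave 182 genes of the 16279 listed, with 88 on chromosome 7, 23 on chromosome 8, 30 on chromosome 13 and 41 on chromosome 17. Bulk RNA-seq was available for male F1 mouse embryonic stem cells (mESCs) labelled C57BL/6 x CAST/EiJ, which the study's methods give as a C57BL/6J mother and a CAST/EiJ father, with 3 libraries, and for cardiac precursor cell cultures (CPCCs) derived in vitro from them, also with 3 libraries. The mESCs were single-cell-derived clones, each from its own blastocyst, kept without feeder cells in 2i medium with LIF. The CPCCs were made from these clones through embryoid bodies with ascorbic acid and then passaged with EGF and Fgf2, so both groups share the hybrid genome and no group carries an engineered allele. A CPCC library is a mixed culture, and in bulk RNA fewer cells of a type and less RNA per cell cannot be told apart.

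Most vertebrate zinc finger proteins read DNA through tandem C2H2 fingers, in which cysteine and histidine pairs hold a zinc ion. A large class also carries an amino-terminal KRAB domain, which recruits the corepressor TRIM28 (KAP1). TRIM28 in turn brings the histone methyltransferase SETDB1, HP1 proteins and DNA methylation, and in pluripotent cells this pathway silences transposable elements and protects the methylated allele of imprinted regions. KRAB zinc finger genes have multiplied by tandem duplication, and so lie in clusters of related copies. Some genes with a Zfp name belong to other families. Zfp36, for example, encodes tristetraprolin, a CCCH-type protein that binds mRNA.

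The translated coding sequences divided the genes in this way. At least 10 of 13 conserved positions of the KRAB A box were found in 128 of them, 52 held fewer, and 2 (Zfp389 and Zfp939) had no annotated coding transcript. Neighbours were joined into a cluster where consecutive starts lay within 500 kb and at least 4 members were joined. This gave 14 clusters with 135 of the genes, of which 9 are on chromosome 7, 2 on chromosome 8, 1 on chromosome 13 and 2 on chromosome 17. They are named here by chromosome and a letter in order of position. Of the 135 clustered genes, 106 had a KRAB match, against 22 of the 47 genes outside clusters.

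Promoter sequences also differed between these classes, and 5 are printed because they belong to genes on which the results turn. Zfp54 and Zfp229 are members of cluster 17A that moved in opposite directions, Zfp936 and Zfp719 are such a pair in cluster 7H, and Zfp358 is a strongly rising gene with no KRAB match. Each runs from 250 bases before to 50 bases after the annotated start (RefSeq, GRCm38.p6, C57BL/6J reference), with CpG dinucleotides in capitals.
Zfp54, chr17:21422977-21423276, plus strand: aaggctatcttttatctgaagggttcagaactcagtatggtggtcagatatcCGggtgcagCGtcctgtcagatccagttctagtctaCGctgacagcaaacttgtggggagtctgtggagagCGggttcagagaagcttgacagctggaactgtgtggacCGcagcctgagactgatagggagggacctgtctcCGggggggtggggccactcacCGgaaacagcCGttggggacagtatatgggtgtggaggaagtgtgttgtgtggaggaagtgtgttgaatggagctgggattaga
Zfp229, chr17:21733474-21733773, plus strand: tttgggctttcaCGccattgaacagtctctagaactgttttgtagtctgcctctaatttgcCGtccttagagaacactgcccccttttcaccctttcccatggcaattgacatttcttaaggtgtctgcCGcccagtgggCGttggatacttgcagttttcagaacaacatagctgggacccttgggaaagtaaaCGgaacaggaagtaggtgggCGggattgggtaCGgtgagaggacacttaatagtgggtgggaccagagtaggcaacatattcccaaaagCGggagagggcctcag
Zfp936, chr7:43177340-43177639, plus strand: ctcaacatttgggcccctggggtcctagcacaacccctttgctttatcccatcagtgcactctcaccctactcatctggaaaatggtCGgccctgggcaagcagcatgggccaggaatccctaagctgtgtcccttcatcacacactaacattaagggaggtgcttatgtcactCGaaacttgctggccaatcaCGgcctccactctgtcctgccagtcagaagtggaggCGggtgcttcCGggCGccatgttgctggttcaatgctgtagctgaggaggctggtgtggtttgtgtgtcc
Zfp719, chr7:43579336-43579635, plus strand: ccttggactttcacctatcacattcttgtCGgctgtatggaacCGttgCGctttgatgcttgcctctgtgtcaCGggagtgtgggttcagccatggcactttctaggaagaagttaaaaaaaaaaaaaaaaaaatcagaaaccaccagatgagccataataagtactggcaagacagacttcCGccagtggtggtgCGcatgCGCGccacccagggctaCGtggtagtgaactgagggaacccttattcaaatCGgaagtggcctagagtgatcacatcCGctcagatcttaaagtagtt
Zfp358, chr8:3492888-3493187, plus strand: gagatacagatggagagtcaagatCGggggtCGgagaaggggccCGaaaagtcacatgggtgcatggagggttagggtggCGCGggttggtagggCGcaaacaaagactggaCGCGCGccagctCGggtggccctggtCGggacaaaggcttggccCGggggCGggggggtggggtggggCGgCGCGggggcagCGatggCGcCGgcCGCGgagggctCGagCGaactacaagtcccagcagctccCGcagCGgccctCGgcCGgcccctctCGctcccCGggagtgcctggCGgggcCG

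The promoters of Zfp54 and Zfp229 held 8 CpG each, those of Zfp936 and Zfp719 held 6 and 11, and that of Zfp358 held 31. Over the 160 genes with a RefSeq promoter the median was 12 CpG, against 19 over the promoters of 12479 listed genes. Among tested genes with a KRAB match, the median was 11 for the 21 higher in CPCCs, 10 for the 28 lower and 10 for the 61 not called, nearly the same count in each. Among those with no KRAB match the medians were 23, 19 and 18, over 17, 10 and 17 promoters. The letters GGGCGG, searched on both strands, occurred in 41.9% of the promoters against 61.1% of all, and CCAAT in 48.8% against 38.7%. CACGTG occurred in 11.2% against 9.8%, and TATAAA in 6.2% against 7.9%.

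The libraries held 6442639 to 6907330 counts in mESCs (columns S01 to S03) and 8468819 to 11436062 in CPCCs (S04 to S06, S04 the deepest). Levels are given as normalized CPM (counts per 1000000 counts of the library), scaled with TMM over genes listed for both cell types. The 6 pluripotency markers were all lower in CPCCs, with a summed level of 3155 to 3407 CPM in mESCs against 32.3, 105 and 147 CPM in S04, S05 and S06. Of the 9 cardiac precursor markers, 4 were tested and 2 of these (Fst and Tnnt2) were higher, and the list summed to 6.80 to 9.36 CPM before differentiation and 193 to 318 CPM after it. Nkx2-5 was listed for CPCCs only, at 1.59, 0 and 0.917 CPM, and Tbx5 for mESCs only. The 6 mesenchymal markers summed to 9.89 to 14 CPM against 7404 to 10913 CPM, with 3 tested and 2 higher, and the 4 neural markers to 38.8 to 46.4 against 531 to 566 CPM, with 3 tested and all 3 higher. Of 4 endoderm markers, Afp and Ttr were not analysed here, and the list summed to 0.927 to 2.78 against 13.7 to 47.8 CPM. The 3 endothelial markers summed to 86 to 94.3 CPM against 9.86 to 18.9 CPM, of which Pecam1, also active in mESCs, was the only member tested. The CPCCs held the markers of several cell types, and what these contribute to each Zfp value was not tested.

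Which of these genes change between the mESCs and the CPCCs derived from them was asked first. The transition moved Zfp genes both ways in nearly equal numbers. Of the 182, 178 were listed for both cell types and 175 passed the filter on low counts. Of these 175, 43 were higher in CPCCs, 45 were lower and 87 did not pass the threshold (edgeR's quasi-likelihood test, Benjamini-Hochberg adjusted p under 0.05 over all 12471 genes tested). As shares, 24.6% were higher and 25.7% lower, against a background of 31.7% higher and 29.7% lower among all genes tested. In either direction 50.3% were called, below the background of 61.4%. The median log2 fold change of CPCC over mESC was 0.10, with quartiles of -0.86 and 0.90, while the median of the whole set of tested genes was 0.031. The 3 CPCC libraries lay entirely above the mESC libraries for 57 of the 175 genes and entirely below for 54, against backgrounds of 35.3% and 34.5% of all genes. These genes had lower counts than most: their median level was 14.8 CPM in both cell types, against 25.3 and 29.4 CPM for all genes listed for both. What this adds to the smaller share of calls was not tested. Across the 178 genes, mESC and CPCC mean levels had a Spearman correlation of 0.61, against 0.73 across all 13001 genes listed for both. These values are across genes of the same libraries and carry no test.

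**Figure D1:**
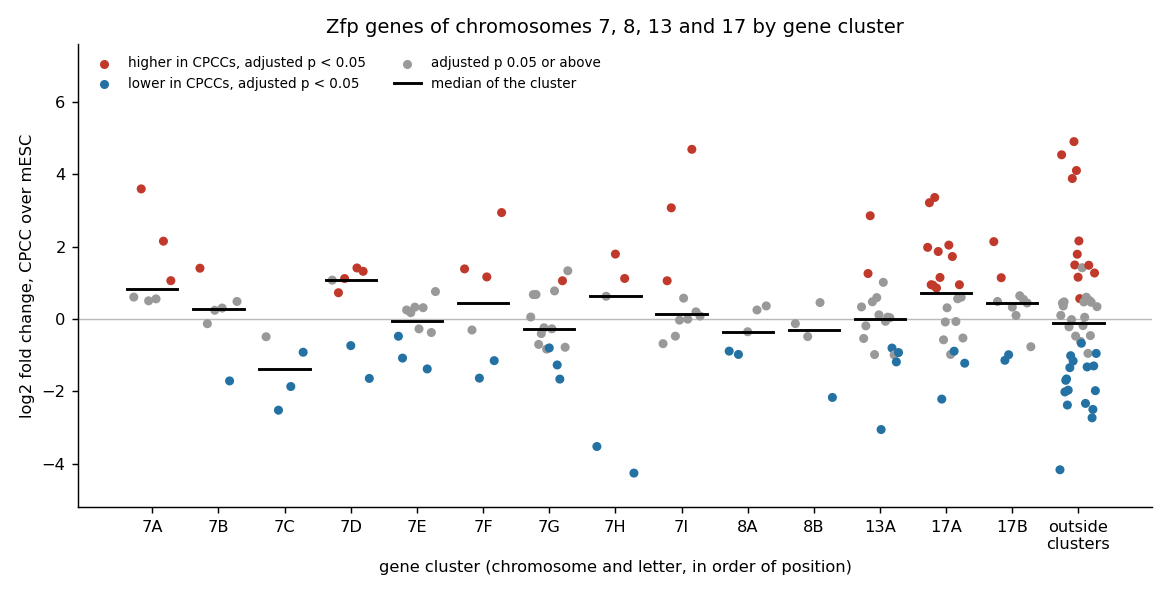
Log2 fold change of CPCC over mESC for the 175 tested Zfp genes, 1 point a gene, by gene cluster (chromosome and letter), with bars for medians and colours for the edgeR call. Both directions occur in most clusters, cluster 7C holds no gene above 0, cluster 7A none below it, and the genes outside clusters span -4.16 to 4.90.

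The 6 largest rises, Zfp703, Zfp629, Zfp536, Zfp423, Zfp358 and Zfp579, all came from genes with no KRAB match, of which 51 were tested among 175. Zfp703, which encodes a transcriptional corepressor of the NET family (chromosome 8, 26977336 to 26981463), stood at 0.618, 2.06 and 0.731 CPM in the stem cells and at 37.0, 30.9 and 35.9 CPM in CPCCs. The 3 CPCC libraries were alike and far above the mESC libraries, with a log2 fold change of 4.90 ± 0.42 (SE, edgeR adjusted p = 1.8e-05). Zfp629 (chromosome 7, 127607035 to 127614434) was at 0.463, 2.06 and 0.439 CPM in mESCs against 16.4, 33.3 and 28.3 CPM in CPCCs, a log2 fold change of 4.69 ± 0.57 (edgeR adjusted p = 0.00013).

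Zfp536, a brain-expressed gene whose product restrains neuronal differentiation, was at 0.463, 1.62 and 1.32 CPM in mESCs against 11.2, 32.4 and 37.0 CPM in CPCCs (log2 fold change 4.54 ± 0.58, edgeR adjusted p = 0.00018). Its lowest CPCC library was S04, which was also lowest for the neural marker Sox1 at 3.78 CPM against 23.4 and 50.9 CPM. Of the other neural markers, Pax6 was lowest in S04 too, Nes was lowest in S06, and Tubb3 was highest in S04. Whether these are linked to Zfp536 was not tested. Zfp423, known for committing cells to the fat lineage and for its part in brain development, showed the order of Zfp536, with 0.618, 1.18 and 2.19 CPM in mESCs against 14.3, 23.3 and 32.2 CPM in S04, S05 and S06 (log2 fold change 4.10 ± 0.50, edgeR adjusted p = 0.00013). Both genes are long and lie outside any cluster.

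Zfp358 (chromosome 8, 3493138 to 3497209), with the CpG-rich promoter printed above, went from 1.85, 2.35 and 3.22 CPM to 27.6, 46.2 and 36.7 CPM (log2 fold change 3.88 ± 0.33, edgeR adjusted p = 1.8e-05). Zfp579, in cluster 7A, went from 1.08, 2.50 and 0.439 CPM to 12.1, 16.4 and 20.7 CPM (log2 fold change 3.60 ± 0.54, edgeR adjusted p = 0.00046). For all 6 genes the lowest CPCC library exceeded the highest mESC library several times over, but their mESC values rest on few counts.

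**Figure D2:**
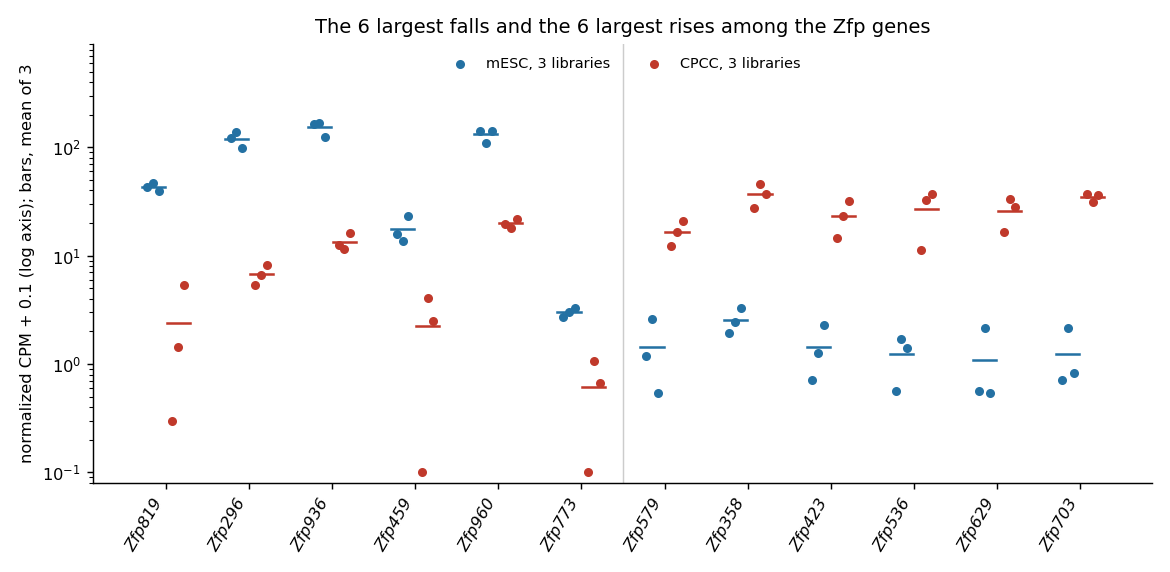
Normalized CPM plus 0.1 (log axis) in each library for the 6 largest falls (left) and the 6 largest rises (right), with bars at the means of 3. None of the 12 genes overlaps between the cell types, and among CPCCs Zfp819 ranges from 0.199 to 5.27 CPM and Zfp459 from 0 to 4 CPM.

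The 6 largest falls were of Zfp819, Zfp296, Zfp936, Zfp459, Zfp960 and Zfp773. Of these 6, 5 have a KRAB match, as do 122 of all 175 tested genes. Zfp819, a KRAB gene whose product binds TRIM28 and which is expressed in pluripotent cells, was at 42.6, 46.6 and 39.6 CPM in mESCs against 0.199, 1.33 and 5.27 CPM in CPCCs. Its log2 fold change was -4.26 ± 0.71 (edgeR adjusted p = 0.00083), with a wide spread among CPCCs. Zfp296, the member of this group with no KRAB match, encodes a factor that aids reprogramming to pluripotency, and it went from 122, 137 and 98.0 CPM to 5.27, 6.55 and 8.14 CPM (log2 fold change -4.16 ± 0.24, edgeR adjusted p = 3.1e-06). Of the 181 genes listed for CPCCs, S04 was the lowest CPCC library in 82 and S06 the highest in 75. Zfp819 and Zfp296 were lowest in S04 and highest in S06, an order that Zfp936, Zfp459, Zfp960 and Zfp773 did not show. Nanog showed the order of Zfp819 and Zfp296, at 7.85, 25.6 and 42.5 CPM, as did the summed pluripotency markers given above. The part that remaining pluripotent cells have in these values was not tested.

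Zfp936 (chromosome 7, 43177588 to 43192110) stood at 163, 169 and 126 CPM in mESCs against 12.3, 11.5 and 16 CPM in CPCCs (log2 fold change -3.52 ± 0.22, edgeR adjusted p = 4.0e-06). Zfp459 on chromosome 13 was at 15.9, 13.5 and 23.0 CPM against 0, 4 and 2.41 CPM (log2 fold change -3.05 ± 0.84, edgeR adjusted p = 0.011). Without S03 it missed the threshold, at an edgeR adjusted p of 0.051. Zfp773 was low throughout, at 2.63, 2.94 and 3.22 CPM against 0, 0.970 and 0.573 CPM, and its log2 fold change of -2.52 ± 0.88 (edgeR adjusted p = 0.032) also missed the threshold without any of S01, S02, S03 or S06, with adjusted p between 0.064 and 0.089.

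Zfp960 went from 142, 110 and 143 CPM to 19.6, 17.9 and 21.8 CPM (log2 fold change -2.73 ± 0.19, edgeR adjusted p = 7.2e-06). Its neighbour on chromosome 17, Zfp97, went from 105, 88.5 and 95.3 CPM to 19.2, 15.5 and 16.6 CPM (log2 fold change -2.50 ± 0.18, edgeR adjusted p = 9.0e-06). The 2 genes are near copies, with 69.2% of the 100-base stretches of Zfp960 and 68.0% of those of Zfp97 found in another gene, so how the reads divide between them is uncertain.

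Genes of known function outside these extremes gave a mixed picture. Zfp57, which keeps the methylation of imprinted control regions through TRIM28, had the highest mESC level of the group by CPM, at 228, 253 and 162 CPM. In CPCCs it was at 38, 61 and 64.4 CPM, below every mESC library (log2 fold change -1.98 ± 0.25, edgeR adjusted p = 0.00018). Zfp568, a KRAB gene that represses a placental transcript of Igf2, was at 118, 111 and 107 CPM against 124, 76.8 and 77.7 CPM. S04 lay above every mESC library and S05 and S06 below them, and the log2 fold change of -0.27 ± 0.21 did not pass (edgeR adjusted p = 0.30). Without S04 it was -0.52 with an adjusted p of 0.010. Zfp708, known for binding a class of retrotransposon, was at 9.11, 13.2 and 14.9 CPM against 8.33, 4.61 and 12.7 CPM (log2 fold change -0.54 ± 0.40, edgeR adjusted p = 0.28). All of its 100-base stretches occur in another annotated gene and it overlaps Rslcan18 on the same strand, so its counts are uncertain.

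Zfp260, which encodes a regulator of cardiac genes, had the highest CPCC level of the group by CPM. It rose from 106, 119 and 111 CPM to 244, 226 and 231 CPM, with tight replicates (log2 fold change 1.06 ± 0.15, edgeR adjusted p = 0.00029). Per kilobase of transcript it stood at 31.1 CPM in mESCs against 64.8 CPM in CPCCs, the highest CPCC level on that scale as well. On the same scale Zfp511 was highest in mESCs, at 109 CPM per kilobase against 53.9 in CPCCs, but it overlaps Tubgcp2 on the opposite strand.

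Zfp36, the mRNA decay factor tristetraprolin, went from 1.85, 3.97 and 5.70 CPM to 45.7, 21.6 and 21.8 CPM (log2 fold change 2.94 ± 0.46, edgeR adjusted p = 0.00059), with S04 far above S05 and S06. Zfp143, which binds promoters of small nuclear RNA genes and chromatin loop anchors, fell from 43.7, 39.9 and 55.9 CPM to 19.5, 17.7 and 17.8 CPM (log2 fold change -1.34 ± 0.21, edgeR adjusted p = 0.00057). Zfp318, known for the splicing choice between IgM and IgD in B cells, was also among the highest in mESCs, at 155, 162 and 169 CPM against 66.7, 88.6 and 96.5 CPM in CPCCs (log2 fold change -0.95 ± 0.18, edgeR adjusted p = 0.0017).

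Zfp110 and Zfp369 encode related proteins that interact with the neurotrophin receptor p75, and they moved in opposite directions. Zfp110 was at 74.1, 71.2 and 80.6 CPM in mESCs against 41.4, 48.0 and 46.5 CPM in CPCCs (log2 fold change -0.73 ± 0.17, edgeR adjusted p = 0.0042). Zfp369 was much lower, at 3.71, 2.50 and 1.61 CPM against 6.16, 5.82 and 9.97 CPM (log2 fold change 1.49 ± 0.47, edgeR adjusted p = 0.021). The rise of Zfp369 missed the threshold without S02, S03 or S06, with adjusted p of 0.061, 0.065 and 0.084.

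Of the 182 genes, 4 were listed for a single cell type, 3 for CPCCs and 1 for mESCs. Each table holds genes with at least 10 counts over its 3 libraries, so a gene that is not listed was set to 3 counts in each library as a bound. Zfp677, a KRAB gene of cluster 17A, was listed for CPCCs alone at 8.15, 3.40 and 4.93 CPM, at least 12.3-fold higher than that bound. Zfp575 was listed for CPCCs at 2.49, 1.94 and 2.18 CPM (at least 4.91-fold higher), though it overlaps Ethe1 on the opposite strand. Zfp964 was at 1.09, 0.970 and 0.802 CPM (at least 2.13-fold higher). Zfp114 was listed for mESCs alone, at 0.618, 0.588 and 1.02 CPM, and so was at least 2.22-fold lower in CPCCs. These bounds cover counting error only and were not tested. Zfp108, Zfp109 and Zfp791, listed for both, were too low for the filter, with no value above 2.41 CPM.

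The gene clusters were compared next, by their counts and medians. Cluster 17A, on chromosome 17 from 21008941 to 23599488, held the most genes, 23, and the most rises. Of its 22 tested genes, 11 were higher in CPCCs, 3 were lower and 8 did not pass, with a median log2 fold change of 0.73. The background is 31.7% higher and 29.7% lower, and the 3 falls here are 13.6% of the 22. The rises lay together: the first 8 tested genes from the proximal end (Zfp160, Zfp54, Zfp51, Zfp53, Zfp52, Zfp948, Zfp983 and Zfp760) were all higher, and Zfp677, listed for CPCCs alone, lies among them. The next gene, Zfp229, fell. Zfp54 went from 2.47, 0.883 and 1.46 CPM to 19.2, 10.9 and 14.8 CPM (log2 fold change 3.21 ± 0.45, edgeR adjusted p = 0.00031). Zfp52 had the largest rise of the cluster, from 3.71, 5.44 and 4.24 CPM to 84.1, 25.5 and 28.2 CPM (log2 fold change 3.36 ± 0.50, edgeR adjusted p = 0.00043), and it overlaps 9330136K24Rik on the opposite strand. Zfp229 was at 76.8, 71.2 and 88.8 CPM in mESCs against 18.5, 12.7 and 19.8 CPM in CPCCs (log2 fold change -2.21 ± 0.22, edgeR adjusted p = 4.8e-05). The promoters of Zfp54 and Zfp229 printed above hold equal numbers of CpG.

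Past Zfp229 the cluster was mixed. Zfp943, Zfp994 and Zfp945 rose by 2.04, 1.73 and 0.95 on the log2 scale, Zfp944 fell by 0.89 and Zfp13, at the distal end, fell by 1.22. S04 was the highest CPCC library in 16 of the 23 genes, against 56 of all 181 genes listed for CPCCs. S04 also had the highest level of the cardiac muscle gene Tnnt2, at 103 CPM against 24.0 and 28.3 CPM, and any link was not tested. Without S04, 12 genes of the cluster were higher and 5 lower. The 5 listed genes of other names that start inside the cluster include 3 that were tested, of which 2 were higher.

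Cluster 7H (chromosome 7, 43177588 to 43618280) held the largest falls beside rises. Of its 5 genes, Zfp936 and Zfp819, at its opposite ends, fell as given above. Zfp658 was higher in CPCCs, at 1.85, 1.03 and 3.66 CPM against 9.54, 8.25 and 5.04 CPM (log2 fold change 1.80 ± 0.54, edgeR adjusted p = 0.017), a call lost without S01, S02 or S05. Zfp719 was higher too, at 21.5, 16.3 and 23.1 CPM against 50.9, 42.0 and 39.8 CPM (log2 fold change 1.12 ± 0.22, edgeR adjusted p = 0.0020). Zfp719 and Zfp819 are adjacent in the cluster and moved in opposite directions.

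The remaining clusters of chromosome 7 differed in direction. In cluster 7A, 3 of 6 genes rose and none fell (median 0.83), with Zfp579 at 3.60 and Zfp784 at 2.15 on the log2 scale. In cluster 7C, 3 of 4 fell and none rose (median -1.39), but only 1 fall passed without S01. Cluster 7D had 4 rises and 2 falls among 7 genes (median 1.08), from Zfp128, at 1.41, to Zfp446, at -1.64. It had 3 rises without S01, S02, S03, S05 or S06. Cluster 7F had 3 rises and 2 falls among 6 (median 0.43), led by Zfp36 and by Zfp59, which fell by 1.63 and shares 28.5% of its 100-base stretches with another gene. Without S01, S03 or S06, cluster 7F had 2 rises. Cluster 7B had 1 of each among 6, Zfp787 at 1.41 and Zfp78 at -1.71, and the fall of Zfp78 missed the threshold without S03 (edgeR adjusted p = 0.054).

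The larger clusters of chromosome 7 had fewer calls. In cluster 7G, with 15 genes the largest of that chromosome, 1 gene rose (Zfp260), 3 fell (led by Zfp566 at -1.66) and 11 did not pass, with a median of -0.27. Without S01, 3 genes were higher, and without S04, 2 were higher and the median was -0.51. In cluster 7E, 10 of 14 genes were tested, none rose and 3 fell, led by Zfp428 at -1.38, but only 1 fall passed without S01, S02 or S05. In cluster 7I, 3 of 10 rose, led by Zfp629 and by Zfp768, which rose by 3.07 on the log2 scale. No fall passed there, but 2 passed without S05 and 1 with DESeq2.

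On chromosome 13, cluster 13A held 18 genes, of which 2 rose, 4 fell and 12 did not pass (median -0.01). These counts were 1 and 1 without S03, 1 and 2 without S01 or S05, 1 and 3 without S02, and 1 and 4 without S06. Zfp458 rose from 1.24, 0.441 and 0.293 CPM to 7.46, 3.03 and 3.90 CPM (log2 fold change 2.85 ± 0.70, edgeR adjusted p = 0.0063), and Zfp459 fell as given above. Cluster 17B had 2 rises and 2 falls among 11 (median 0.44), with no fall left without S02, 1 without S01 or S05, and 3 rises and 1 fall without S03. Its Zfp871 had the second highest CPCC level by CPM, rising from 34.9, 37.5 and 32.6 CPM to 163, 141 and 159 CPM (log2 fold change 2.14 ± 0.17, edgeR adjusted p = 1.1e-05). Zfp870 of that cluster fell by 1.14, a call lost without S02 (edgeR adjusted p = 0.064). On chromosome 8, cluster 8A had 2 falls and no rise among 5 tested genes (median -0.35), led by Zfp868 at -0.98, with 1 fall without S03 or S05 and 1 rise added without S04, and cluster 8B had 1 fall among 4 (median -0.30). That fall was of Zfp961, from 150, 158 and 172 CPM to 29.6, 29.5 and 47.9 CPM (log2 fold change -2.17 ± 0.23, edgeR adjusted p = 5.9e-05). The median of cluster 8B was -0.58 without S04 and -0.10 without S05.

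Neighbours within a cluster were also compared. Of 115 pairs of adjacent tested members of a cluster, 31 had both genes called, and 20 of these (64.5%) went the same way. The 20 include the pairs within the run of 8 rises in cluster 17A given above. Among adjacent tested genes over all chromosomes the share was 58.3% of 4775 pairs. Beside the background of 31.7% higher and 29.7% lower, the members outside clusters had 11 rises and 17 falls among 46 tested (23.9% and 37.0%, median -0.10), against 32 and 28 among the 129 tested inside clusters (24.8% and 21.7%, median 0.20). By chromosome, the genes higher and lower were 18 and 24 of 84 on chromosome 7 (21.4% and 28.6%), 8 and 5 of 21 on chromosome 8 (38.1% and 23.8%), 3 and 6 of 30 on chromosome 13 (10% and 20%), and 14 and 10 of 40 on chromosome 17 (35% and 25%). The share called in either direction was 30% on chromosome 13 and 50.3% over all members, below the background of 61.4%, and 61.9% and 60% on chromosomes 8 and 17, close to it. These are descriptions, and no test of a difference between these sets was run.

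The Zfp genes of the other chromosomes had 46 higher and 35 lower of 154 tested (29.9% and 22.7%) and a median of -0.02, which was 0.10 without S04. Non-members that start inside the clusters had 18 rises and 24 falls among 71 tested (median -0.26), and the other genes of chromosomes 7, 8, 13 and 17 had 780 and 813 among 2565 (median -0.07).

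The KRAB class was then set beside the remaining genes. Of 122 tested genes with a KRAB match, 25 were higher (20.5%), 33 lower (27.0%) and 64 not called, with a median of 0.05 and a range of -4.26 to 3.36. Of 51 without, 18 were higher (35.3%), 12 lower (23.5%) and 21 not called, with a median of 0.20 and a range of -4.16 to 4.90. The share called was 47.5% against 58.8%, beside the background of 61.4%. Without S03 the medians with and without a KRAB match were 0.115 and 0.108, the reverse order, and without S02 they were -0.006 and 0.27. KRAB genes outside clusters had 3 rises and 9 falls among 21 tested (median -0.46), while those inside had 22 and 24 among 101 (median 0.12). The falls outside include the near copies Zfp960 and Zfp97. Also among them are Zfp141, Zfp975 and Zfp976, which join the cluster of 7H when neighbours are joined up to 1000 kb. The summed level of the KRAB genes was 3250 to 3529 CPM in mESCs against 2263 to 2616 CPM in CPCCs, and that of the genes without a match 1684 to 1708 against 1381 to 1622 CPM, so neither sum overlapped between the cell types. By number of fingers of the canonical C2H2 spacing, the median log2 fold change was -0.57 for 22 genes with 0 to 4, -0.24 for 36 with 5 to 9, 0.27 for 68 with 10 to 14 and 0.36 for 47 with 15 or more. In the same order, 5, 9, 13 and 16 genes were higher and 9, 9, 19 and 8 lower, beside backgrounds of 31.7% and 29.7%. Fingers of other spacing are not counted, as in Zfp143.

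**Figure D3:**
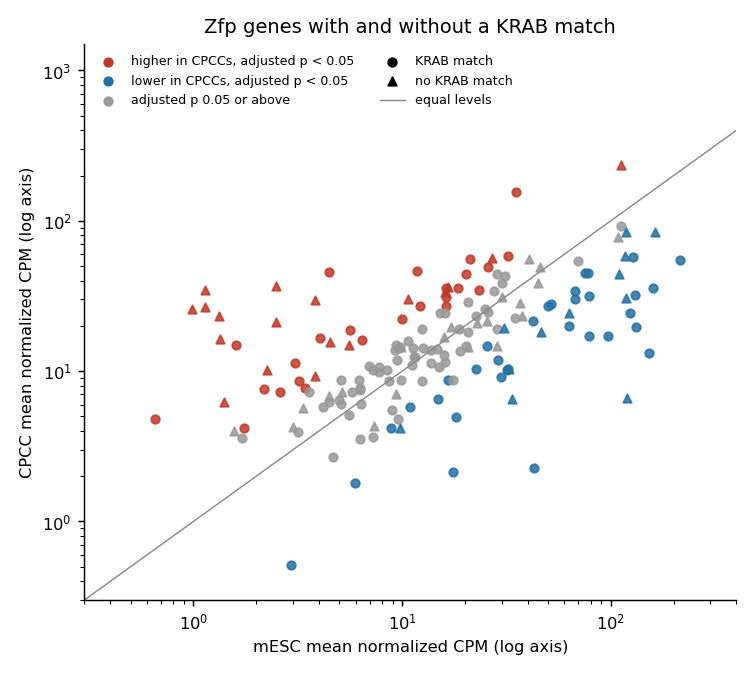
Mean normalized CPM of the tested Zfp genes in mESCs (x) and CPCCs (y), both on log axes, by KRAB match (circles) or none (triangles) and edgeR call, with a line at equal levels. Several rises from low mESC levels are of genes without a KRAB match, such as Zfp629, at 0.987 CPM against 26.0 CPM.

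The partners through which KRAB proteins act moved mostly downward. Of 21 genes of the KRAB repression pathway, all tested, 16 were lower in CPCCs and 3 were higher, against backgrounds of 29.7% and 31.7%, and the median log2 fold change was -1.03. Trim28, the corepressor that KRAB domains bind, was at 1343, 1522 and 1055 CPM in mESCs against 203, 336 and 396 CPM in CPCCs (log2 fold change -2.07 ± 0.26, edgeR adjusted p = 0.00016). Setdb1, which methylates histone H3 at sites bound by TRIM28, was at 116, 121 and 154 CPM against 39.4, 64.8 and 73.8 CPM (log2 fold change -1.14 ± 0.25, edgeR adjusted p = 0.0036).

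The changes past the threshold were largest in Uhrf1, Trim28 and Hdac1. Uhrf1, which recruits the maintenance DNA methyltransferase to replicated DNA, went from 332, 376 and 382 CPM to 34.8, 70.0 and 89.0 CPM (log2 fold change -2.49 ± 0.31, edgeR adjusted p = 0.00016). Hdac1, a histone deacetylase, went from 167, 155 and 185 CPM to 34.4, 47.5 and 49.9 CPM (log2 fold change -1.95 ± 0.20, edgeR adjusted p = 4.6e-05). The 3 genes higher in CPCCs were Dnmt3a, a de novo DNA methyltransferase, at 1.28, Pphln1, of the HUSH silencing complex, at 0.94, and Hdac2 at 0.56 on the log2 scale. Cbx5 and Smarcad1 did not pass, at -0.01 and -0.20. Trim28, Setdb1, Uhrf1 and Hdac1 were all lowest in S04 and highest in S06 among CPCCs, the order of the summed pluripotency markers given above. Other falling genes of the list did not show it: Cbx3, Morc3, Atrx, Fam208a and 2810474O19Rik were highest in S04. The part of remaining pluripotent cells in these levels was not tested.

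**Figure D4:**
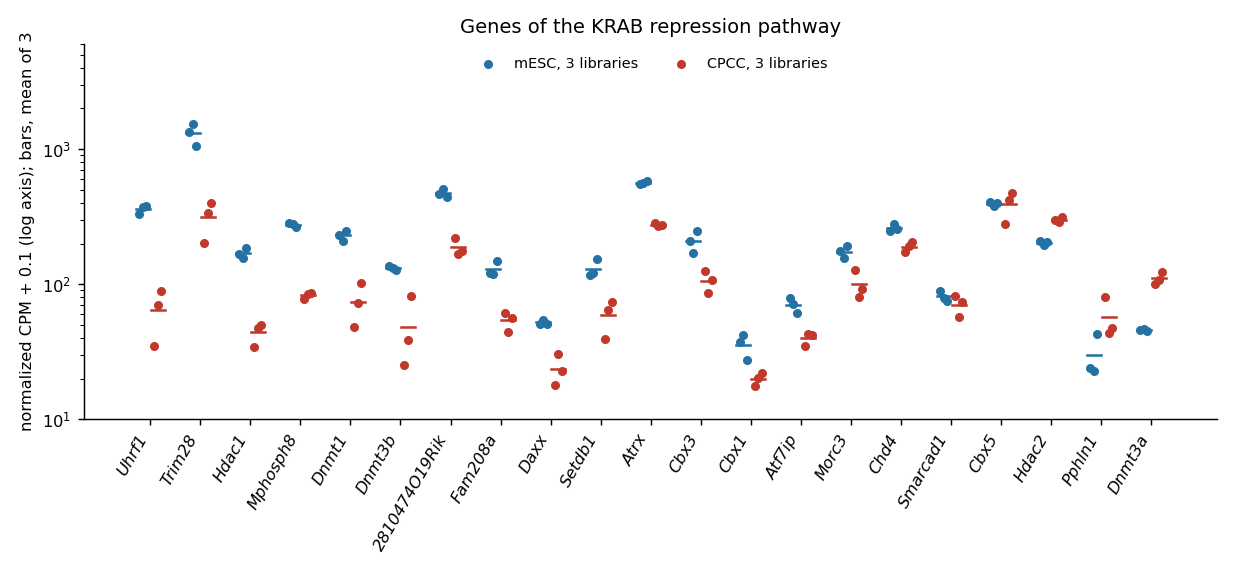
Normalized CPM plus 0.1 (log axis) in each library for the 21 genes of the KRAB repression pathway, ordered from the largest fall to the largest rise, with bars at the means of 3. In 16 genes the 3 CPCC libraries lie below the 3 mESC libraries, and Dnmt3a, Hdac2 and Pphln1 show the reverse.

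The counts of some members are uncertain because their sequence is shared. In 12 genes at least 20% of the 100-base stretches of the transcripts occur in another gene. Of the 11 tested, none rose and 4 fell (36.4%), against backgrounds of 31.7% higher and 29.7% lower. These falls include the near copies Zfp960 and Zfp97. The largest shares were in Zfp708, Zfp935 and Zfp82, at 100%, 99.4% and 94.3%. In addition 8 genes overlap another listed gene, 7 of them on the opposite strand and 1 on the same strand. Of the 88 calls, 67 were kept in the same direction in all 6 fits that left out 1 library, 35 of them higher and 32 lower, and DESeq2 also called all 88.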

How the data were processed

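The authors selected polyA+ RNA, made cDNA libraries with the SMART-Seq v4 kit and sequenced paired ends on an Illumina instrument (the study names HiSeq2500 in its methods and NextSeq in its reporting summary). They deposited 1 table per cell type of estimated counts per gene, without normalization and with the alleles combined. Per the labels, reads were processed with STAR 2.7 on mm10. The counter and its use of strand are not given in the sources used here.

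Counts were rounded. The 13001 genes in both tables were filtered with filterByExpr, which left 12471, scaled by TMM and tested with edgeR 4.0.16 in R 4.3.3 (quasi-likelihood test, all 6 libraries, Benjamini-Hochberg over all genes tested). The standard error is the log2 fold change over the square root of F. The test was checked on simulated data. At this depth 3 counts in a library equal 0.298 to 0.463 CPM. Bounds cover counting error only. Nothing ties a column to a replicate number, and p-values measure the spread between 3 clones or the cultures made from them.

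KRAB matches, finger counts and shared 100-base stretches were computed from GENCODE M21 transcripts (GRCm38, the build of the tables), and promoters came from RefSeq GRCm38.p6.

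The members, gene lists and tests were chosen with earlier results of these data known. Genes were named for a known role, as the 6 largest rises or falls without overlap, as members of 1 table, for the 2 highest levels in each cell type, for the largest rise and fall of a cluster, or from the list of repression partners (Trim28, Setdb1 and the 3 largest changes). Zfp366, on the list of roles, was not analysed here. Others (among them Zfp54, Zfp719, Zfp97, Zfp511, Zfp768, Zfp784, Zfp943 and Zfp944) were chosen after their values were seen. Alternatives were DESeq2 1.42.0, other normalizations and filters, missing genes set to 3 or 0 counts, a 2-fold threshold, another cluster gap, and leaving out a library or the overlapping genes.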

Additional observations from a re-analysis of the deposited data

How the results depend on the processing

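The numbers of Zfp genes higher and lower in CPCCs stayed within 1.5 times the main 43 and 45 under DESeq2, upper-quartile scaling, library totals, without a filter, with every library at 10 counts or more, missing genes at 3 or 0 counts, a 2-fold threshold and without overlapping genes. They ranged from 37 to 47 higher and from 36 to 49 lower when a library was left out. The median log2 fold change of 0.10 moved to 0.19 without genes that overlap another listed gene, by more than the spread of 0.082 between libraries, and ranged from 0.084 to 0.18 when a library was left out. Leaving out genes with at least 20% shared stretches, chosen after seeing the data, gave 43 higher, 41 lower and a median of 0.11. No named gene reversed, and 7 of 40 fitted crossed the threshold under some alternative, each when 1 library was left out. With neighbours joined up to 1000 kb, clusters 7B and 7C merge at a median of -0.31, and the cluster of 7H has 9 genes and a median of -1.65 in place of 0.63. No paired analysis was possible because the columns of the tables carry no replicate numbers. Low counts limit the precision of genes near the floor, and a gene that misses the threshold is not shown to be unchanged.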
